A study of Mus musculus with 12 samples.

Results

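Slc22a7, Slc22a26, Slc22a27, Slc22a28 and Slc22a30, genes of the Slc22 family of organic ion transporters, were followed through an RNA sequencing study of mouse liver. They were 5 of the 15846 genes in the count table, and the rows were found by symbol. The symbols were chosen by their expression in these same 12 livers, with the genotype and diet differences in view, and which comparison decided is not recorded. Their values and fold changes are therefore given as a description, and no p-value of theirs is offered as evidence. The study asked how loss of Shp changes the liver under a diet. Shp, gene symbol Nr0b2, is an orphan nuclear receptor that lacks a DNA-binding domain and represses transcription through other factors. The livers came from C57BL/6 mice aged 5 months and formed 4 groups of 3: Shp Hep-/- (KO) on HFCF, wild type (WT) on HFCF, KO on chow and WT on chow. HFCF is the diet's name in the labels, which do not spell it out. The labels mark the knockout as hepatic, and how the allele was deleted is not given in the sources used here, nor is the sex of the mice.

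Slc22 proteins are membrane carriers that move organic anions, organic cations, carnitine and related solutes, and the liver and kidney are their best known sites. Slc22a7 encodes OAT2, an organic anion transporter of the sinusoidal hepatocyte membrane. Slc22a26, Slc22a27, Slc22a28 and Slc22a30 are rodent members of the organic anion transporter branch that lie side by side in one gene cluster, and their substrates are less well defined than those of OAT2. RNA of a bulk liver sample cannot tell fewer cells of a type apart from less RNA per cell, and this holds for every value below.

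In the table Slc22a7 (ENSMUSG00000067144) lay on chromosome 17, chr17:46432185-46438477 on the minus strand of mm10. The other 4 lay on the minus strand of chromosome 19. Slc22a26 (ENSMUSG00000053303) spanned chr19:7781041-7802667, Slc22a27 (ENSMUSG00000067656) chr19:7864391-7966027, Slc22a28 (ENSMUSG00000063590) chr19:8062209-8131982 and Slc22a30 (ENSMUSG00000052562) chr19:8335371-8405111. Slc22a29, a close relative that is not among the 5, lay between Slc22a28 and Slc22a30. All 5 are annotated as protein coding, and none overlapped another gene of the table. Slc22a27 overlaps an annotated processed pseudogene and a microRNA gene on its own strand.

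The cluster genes are near copies of each other, which bears on how reads could be divided among them. The coding sequences of Slc22a28 and Slc22a30 matched at 1639 of 1659 aligned bases (98.8%), and those of Slc22a27 and Slc22a29 at 1611 of 1656 (97.3%). Slc22a27 matched Slc22a28 and Slc22a30 at 91.7% of aligned bases each. Slc22a26 matched the other cluster genes at 74.3% to 74.7%, and Slc22a7 matched the cluster genes at 58.5% to 62.1%. Of the 50-base stretches of the Slc22a28 transcript, 53.9% also occurred in another gene's transcript, nearly all of them in Slc22a30. That share was 51.8% for Slc22a30, 30.5% for Slc22a27, 9.50% for Slc22a26 and 0 of 1940 stretches for Slc22a7. How reads that fit both copies were counted is not given in the sources used here, so values of Slc22a28 and Slc22a30, and of Slc22a27 and Slc22a29, are uncertain as to which copy of the pair gave a read.

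The likeness of Slc22a28 and Slc22a30 extends into their promoters. The windows below run from 250 bases before to 50 after each RefSeq transcription start (GRCm38.p6, both on the minus strand, printed 5′ to 3′), chr19:8131933-8132232 for Slc22a28 and chr19:8405056-8405355 for Slc22a30. Capitals mark the bases that differ between the windows or that have no partner in their alignment, and the pair is shown because these promoters belong to genes whose levels differed widely in what follows.
Slc22a28: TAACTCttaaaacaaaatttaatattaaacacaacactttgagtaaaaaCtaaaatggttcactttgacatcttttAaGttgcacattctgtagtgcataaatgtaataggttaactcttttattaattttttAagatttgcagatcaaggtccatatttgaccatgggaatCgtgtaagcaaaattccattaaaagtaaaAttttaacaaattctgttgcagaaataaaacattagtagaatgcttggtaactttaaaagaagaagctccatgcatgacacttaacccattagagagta
Slc22a30: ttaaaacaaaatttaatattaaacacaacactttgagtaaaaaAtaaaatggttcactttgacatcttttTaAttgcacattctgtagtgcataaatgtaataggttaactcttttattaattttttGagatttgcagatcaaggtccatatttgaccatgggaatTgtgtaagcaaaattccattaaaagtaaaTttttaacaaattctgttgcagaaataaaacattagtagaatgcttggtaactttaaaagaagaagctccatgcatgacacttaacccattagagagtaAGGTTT
Of 294 aligned bases 288 were identical (98.0%), and the starts were offset by 6 bases. The promoters of Slc22a26 and Slc22a27 matched the others of the 5 at only 54.9% to 61.1% of aligned bases. RefSeq promoter windows were at hand for 4 of the 5 genes, without Slc22a7. Motifs for 5 kinds of site were searched on both strands, and the share of 32851 promoter windows that hold each follows its letters: the nuclear receptor site AGGTCA (16.3%), its extended form CAAGGTCA (1.56%), the STAT5 site TTCNNNGAA (8.30%), the palindromic HNF1 site (0.0091%) and the FOXA site TGTTTAC (3.65%). CAAGGTCA contains AGGTCA. The Slc22a27 window held AGGTCA once and the Slc22a26 window TTCNNNGAA once. None of the 5 was in the Slc22a28 or the Slc22a30 window.

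Libraries held 13967116 to 18324134 counts, and 14736 genes passed a filter on low counts and were tested. CPM below are counts divided by TMM-scaled library sizes, and FPKM are the deposited values per length. Replicate 1 of the WT HFCF livers stood apart from the others of its group, with a chi-square of 32.2 and 34.4 per degree of freedom when set against replicates 2 and 3. Those differed from each other by 11.2. The other pairs within groups gave 11.5 to 19.8. Nr0b2 averaged 0.371 ± 0.151 CPM in KO HFCF livers and 50.2 ± 2.96 CPM in WT HFCF livers, and 0.778 ± 0.228 CPM in KO chow livers and 34.3 ± 13.7 CPM in WT chow livers (SD, n = 3 each). Every KO liver lay below every WT liver.

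Per length, the 5 genes were spread over the Slc22 family in these livers, from rank 4 to rank 12. Among 15 Slc22 genes in the table, ordered by their mean over 12 libraries, Slc22a30 stood at rank 4 with a mean of 18.9 FPKM, and Slc22a7 at rank 6 with 10.2 FPKM. Slc22a28 stood at rank 7 with 2.05 FPKM, Slc22a27 at rank 11 with 0.597 FPKM and Slc22a26 at rank 12 with 0.571 FPKM. Slc22a30 therefore dominated the summed FPKM of the cluster genes, and its share of the sum over all 5 genes was 37.2% to 48.2% in KO HFCF livers, 53.7% to 62.9% in WT HFCF livers, 68.1% to 79.3% in KO chow livers and 62.2% to 73.6% in WT chow livers. The lowest shares, in KO HFCF livers, stood beside the highest Slc22a7 levels. The sum itself was 31.1 to 39.3 FPKM in KO HFCF livers, 24.8 to 46.0 in WT HFCF livers, 18.0 to 30.3 in KO chow livers and 30.2 to 31.3 in WT chow livers. KO and WT overlapped on HFCF, and on chow 1 KO liver (30.26 FPKM) lay just above the lowest WT liver (30.23 FPKM).

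**Figure D1:**
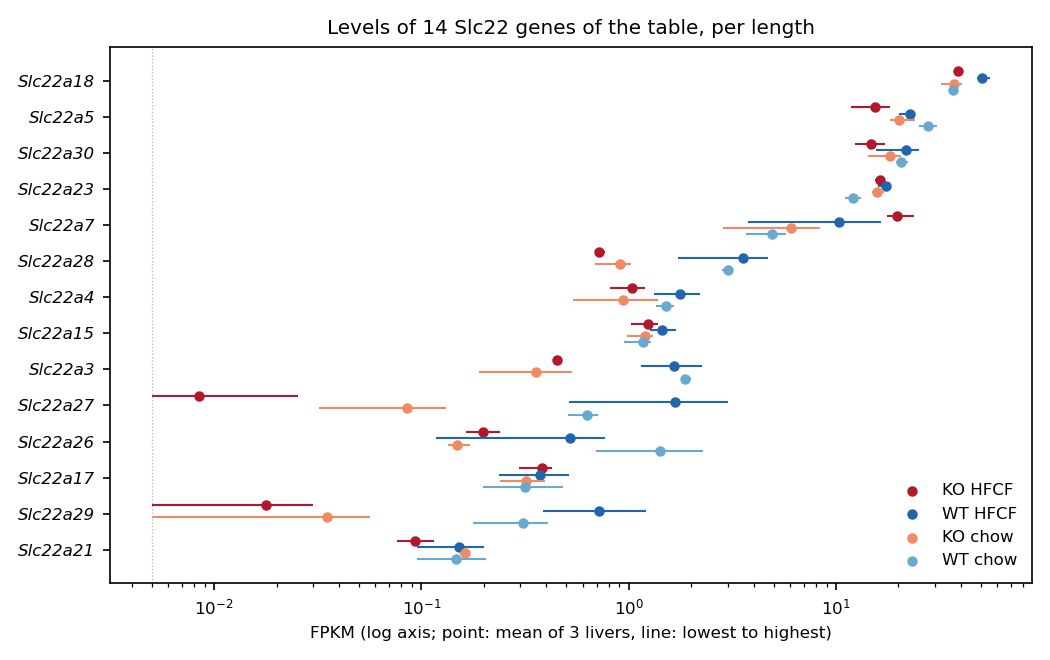
FPKM of 14 Slc22 genes of the table on a log axis, ordered by their mean over 12 libraries, with a point for the mean of each group of 3 livers and a line from its lowest to its highest liver (values of 0 are drawn at the dotted line). Slc22a30 and Slc22a7 lie near the more abundant family members, and Slc22a27 and Slc22a29 reach the left edge in KO livers.

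Slc22a7 was highest in KO livers on HFCF. Its level was 50.1, 36.0 and 37.2 CPM in KO HFCF livers, 7.56, 33.5 and 20.9 CPM in WT HFCF livers, 16.7, 5.80 and 13.4 CPM in KO chow livers and 11.6, 10.9 and 7.60 CPM in WT chow livers. All KO HFCF livers lay above all other livers, by a narrow margin over replicate 2 of WT HFCF, and the other 3 groups overlapped. The order of the means was KO HFCF (41.1 ± 7.83), WT HFCF (20.7 ± 13.0), KO chow (11.9 ± 5.57) and WT chow (10.03 ± 2.13 CPM, SD, n = 3 each), of which the last 3 do not differ beyond their spread. The log2 fold change of HFCF against chow was 1.77 ± 0.41 in KO and 1.03 ± 0.43 in WT. Here and below, ± beside a log2 fold change is an SE derived from the edgeR fit of 12 libraries. The log2 fold change of KO against WT was 1.01 ± 0.40 on HFCF and 0.27 ± 0.45 on chow. The difference between these, the interaction, was 0.74 ± 0.60.

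Single libraries weighed on the Slc22a7 values. Replicate 1 of WT HFCF, the library that stood apart, had the lowest Slc22a7 level of its group, and without it the diet difference in WT was 1.44 ± 0.32. Without replicate 2 of WT HFCF, the highest of its group, the genotype difference on HFCF was 1.54 ± 0.40. Both also shrank in other refits, with another setting or 1 library left out. Over all refits the diet difference in WT was 0.49 to 1.44 and the genotype difference on HFCF 0.60 to 1.54. The genotype difference on chow turned to -0.06 without replicate 1 of KO chow. The diet difference in KO was 1.45 to 2.09 over the fits that left out 1 library each.

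Slc22a28 was lower in KO livers than in WT livers on both diets. It stood at 1.60, 1.40 and 1.46 CPM in KO HFCF livers, against 3.41, 8.48 and 9.15 CPM in WT HFCF livers. On chow it stood at 1.99, 1.38 and 1.95 CPM in KO livers, against 6.36, 5.73 and 6.29 CPM in WT livers. The 6 KO livers lay within 1.38 to 1.99 CPM, and no WT liver reached down to them. The log2 fold change of KO against WT was -2.22 ± 0.32 on HFCF and -1.77 ± 0.31 on chow. Diet separated neither genotype: HFCF against chow gave -0.27 ± 0.37 in KO and 0.18 ± 0.27 in WT. Replicate 1 of WT HFCF was again the low one of its group, and without it the diet difference in WT was 0.52 ± 0.15. Without replicate 3 of WT HFCF it turned to -0.07. The order of the means was WT HFCF (7.01 ± 3.14), WT chow (6.13 ± 0.345), KO chow (1.78 ± 0.343) and KO HFCF (1.49 ± 0.102 CPM, SD, n = 3 each). Within each genotype the neighbours overlapped.

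Slc22a30, the near copy of Slc22a28, held much closer levels between the genotypes. It stood at 51.2, 58.4 and 42.8 CPM in KO HFCF livers and at 52.0, 83.5 and 82.5 CPM in WT HFCF livers. On chow it stood at 68.3, 48.1 and 63.8 CPM in KO livers and at 65.6, 69.7 and 76.0 CPM in WT livers. KO and WT overlapped on both diets. The log2 fold change of KO against WT was -0.52 ± 0.17 on HFCF and -0.23 ± 0.17 on chow, and that of HFCF against chow was -0.24 ± 0.17 in KO and 0.04 ± 0.17 in WT. Without replicate 1 of WT HFCF, the lowest of its group, the genotype difference on HFCF was -0.71 ± 0.14. Over all refits, with another setting or 1 library left out, the genotype difference on HFCF was -0.71 to -0.41. The diet difference in WT turned to -0.07 and -0.06 without replicates 2 and 3 of WT HFCF.

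The ratio of these copies separated the genotypes without overlap. Slc22a28 FPKM came to 5.24%, 4.03% and 5.74% of Slc22a30 FPKM in KO HFCF livers, against 11.03%, 17.1% and 18.6% in WT HFCF livers. On chow the ratio was 4.90%, 4.82% and 5.15% in KO livers, against 16.3%, 13.8% and 13.9% in WT livers. All 6 KO livers lay at 5.74% or below and all 6 WT livers at 11.03% or above. The summed CPM of both copies stays the same if reads pass from one copy to the other. It would change if reads that fit both were dropped or counted for each, and most of it was Slc22a30. The sum averaged 52.3 ± 7.77 in KO HFCF livers and 79.6 ± 21.0 in WT HFCF livers. On chow it averaged 61.8 ± 10.9 in KO livers and 76.6 ± 5.27 in WT livers (SD, n = 3 each). The sums of KO and WT livers overlapped on HFCF and did not overlap on chow.

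**Figure D2:**
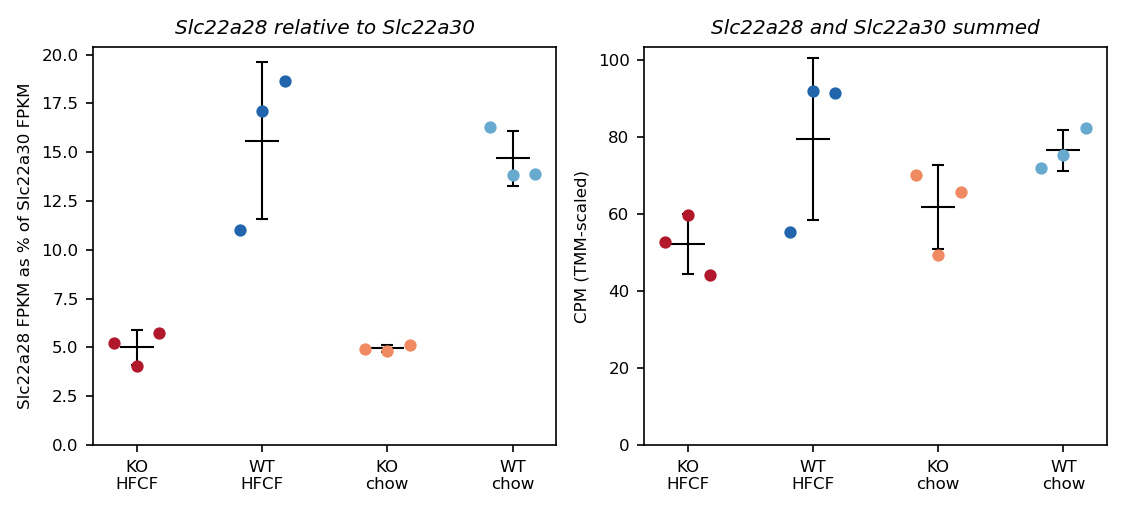
Slc22a28 FPKM as a percentage of Slc22a30 FPKM (left) and the summed CPM of both (right) in each liver (points), with the group mean (bar) and SD (whiskers, n = 3). The ratio averaged 5.00% ± 0.883 in KO HFCF, 15.6% ± 4.02 in WT HFCF, 4.96% ± 0.170 in KO chow and 14.7% ± 1.40 in WT chow livers, while the sums of the groups lie closer together.

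Slc22a27 was close to absent from KO livers. It stood at 0, 0 and 0.0563 CPM in KO HFCF livers, a single count in all, against 6.42, 1.11 and 3.03 CPM or 176 counts in WT HFCF livers. On chow it stood at 0.277, 0.0690 and 0.189 CPM in KO livers, 9 counts in all, against 1.43, 1.56 and 1.11 CPM or 58 counts in WT livers. Every KO liver lay below every WT liver. With 1 count a fitted fold change has little meaning, so the pooled level is given: on HFCF it was 0.589% of the WT level in KO livers, with a 95% exact counting interval of 0.0148% to 3.32%, which covers counting error only. On chow the log2 fold change of KO against WT was -2.83 ± 0.75. Leaving out 1 library at a time gave -3.30 to -2.49.

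The diet difference of Slc22a27 was 1.39 ± 0.47 in WT on the log2 scale, and the HFCF and chow livers overlapped. Without replicate 2 of WT HFCF, the lowest of its group, it was 1.80 ± 0.35. Over all refits, with another setting or 1 library left out, it was 0.61 to 1.80. In KO the pooled HFCF level was 11.7% of the chow level, and its counting interval of 0.268% to 84.7% spans most sizes, since it rests on 1 and 9 counts. The order of the means was WT HFCF (3.52 ± 2.69), WT chow (1.36 ± 0.233), KO chow (0.178 ± 0.104) and KO HFCF (0.0188 ± 0.0325 CPM, SD, n = 3 each). The WT groups overlapped, and the KO groups differed by a few counts. Pooled with its near copy Slc22a29, Slc22a27 reached 3 counts in KO HFCF livers and 258 in WT HFCF livers, and 13 in KO chow livers and 89 in WT chow livers.

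Slc22a26 was low in all livers, and its highest values were in WT livers on chow. It stood at 0.581, 0.490 and 0.731 CPM in KO HFCF livers and at 1.99, 0.348 and 2.19 CPM in WT HFCF livers. On chow it stood at 0.498, 0.414 and 0.378 CPM in KO livers, against 6.72, 3.82 and 2.07 CPM in WT livers. The chow groups did not overlap, whereas replicate 2 of WT HFCF lay below all KO livers. The log2 fold change of KO against WT was -3.25 ± 0.56 on chow and -1.33 ± 0.59 on HFCF, and the interaction was 1.93 ± 0.87. Without replicate 2 of WT HFCF the HFCF difference was -1.77 ± 0.47. Over all refits, with another setting or 1 library left out, the HFCF difference was -1.77 to -0.98.

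HFCF against chow gave -1.44 ± 0.46 for Slc22a26 in WT and 0.48 ± 0.74 in KO. The difference in WT was -1.77 without WT chow replicate 3 and also without WT HFCF replicate 3. Over all refits, with another setting or 1 library left out, it was -1.77 to -0.92. The order of the means was WT chow (4.21 ± 2.35), WT HFCF (1.51 ± 1.01), KO HFCF (0.601 ± 0.122) and KO chow (0.430 ± 0.0616 CPM, SD, n = 3 each). Each group overlapped its neighbour in that order.

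**Figure D3:**
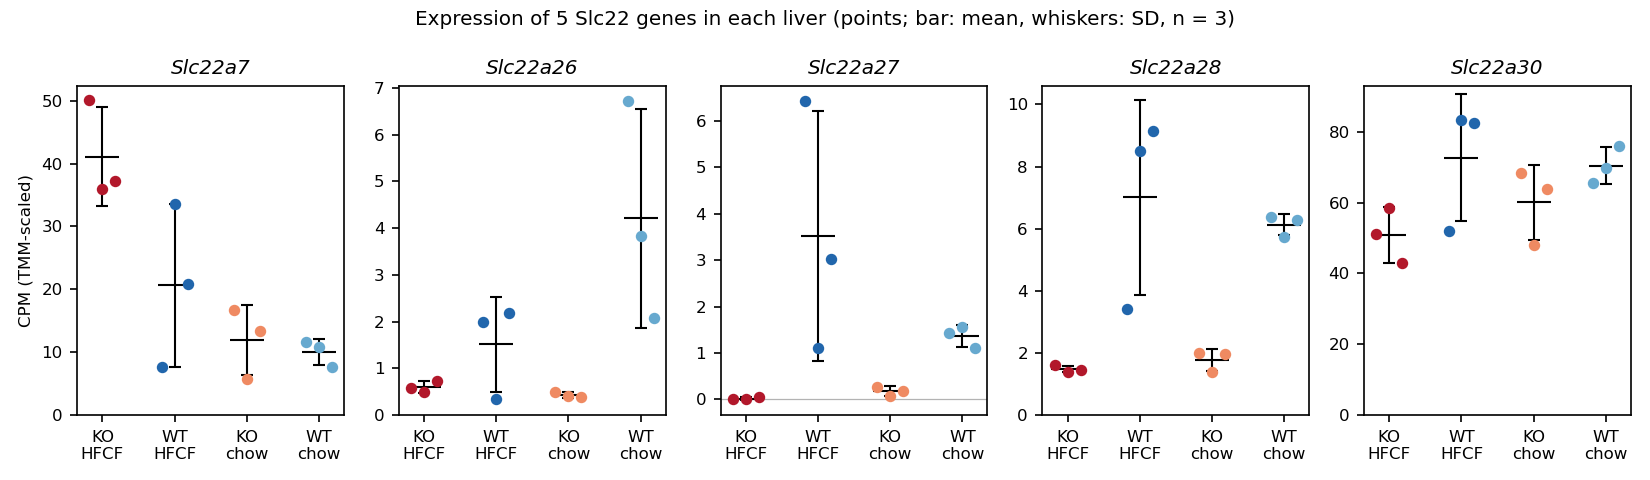
TMM-scaled CPM of the 5 genes in each of 12 livers (points), with the group mean (bar) and SD (whiskers, n = 3), each gene on its own linear axis. Slc22a28 and Slc22a27 lie lower in all 6 KO livers than in any WT liver, Slc22a7 is highest in the KO HFCF livers, and the Slc22a30 groups overlap.

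The fit of all genes also sorted the 5 into called and not called, which is given only as a description. Calls were made with edgeR's quasi-likelihood test at a Benjamini-Hochberg adjusted p under 0.05 over the 14736 tested genes. For KO against WT on HFCF, 2 of the 5 genes were called, Slc22a27 and Slc22a28, both lower, where 19.1% of all tested genes were called, 10.6% higher and 8.52% lower. On chow 3 of the 5 were called, Slc22a26, Slc22a27 and Slc22a28, all lower, where 15.5% of tested genes were called, 9.72% higher and 5.82% lower. For HFCF against chow, 1 of 5 was called in KO, Slc22a7, higher, where 2.65% of tested genes were called, 1.47% higher and 1.18% lower. In WT 0 of 5 were called, where 13.7% of tested genes were, 7.76% higher and 5.9% lower. The interaction called 0 of 5, where 0.794% of tested genes were called, 0.373% higher and 0.421% lower. The groups did not overlap for 3 of the 5 genes between genotypes on HFCF (34.2% of tested genes, 15.7% lower and 18.5% higher) and for 3 of 5 on chow (36.1%, 16.8% lower). They did not overlap for 2 of 5 between diets in KO (24.4%) and for 0 of 5 in WT (31.1%, 15.8% higher). Nothing is read from these counts, since the genes were listed with the differences known. At an unadjusted p under 0.05 in edgeR, 3 of the 5 differed by diet in WT, where 28.6% of tested genes did, and 2 in the interaction, where 13.2% did. DESeq2 called 1 of the 5 and 2009 genes in all by diet in WT, and 0 of the 5 and 344 genes in all in the interaction.

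Several of these calls turned with the fit. The Slc22a7 call in KO was lost without any one of the 3 WT chow, 3 KO chow or 3 KO HFCF livers, and also with the replicate block (1.76 ± 0.44). The Slc22a27 call on chow was lost without WT chow replicate 1 or 2, without KO chow replicate 2 or 3, and with limma voom. Calls were gained on HFCF between genotypes for Slc22a7 (without WT HFCF replicate 2, or with limma voom), for Slc22a26 (without WT HFCF replicate 2) and for Slc22a30 (without WT HFCF replicate 1, KO HFCF replicate 2 or KO chow replicate 2, or with RLE scaling or DESeq2). Calls were gained between diets in WT for Slc22a7 and Slc22a28 (without WT HFCF replicate 1) and for Slc22a27 (without WT HFCF replicate 2). Slc22a26 gained one there without WT chow replicate 3 or WT HFCF replicate 3, and with the stricter filter, the replicate block or DESeq2.

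How the genes passed the filter also matters for those counts. Slc22a7, Slc22a28 and Slc22a30 reached the filter's 0.686 CPM in all 12 libraries. Slc22a27 reached it in all 6 WT livers and in 0 of 6 KO livers. Slc22a26 reached it in 3 WT chow, 2 WT HFCF and 1 KO HFCF livers and in 0 KO chow livers. Those 2 genes passed through WT livers, so their lower level in KO was in part a condition of being tested. The median log2 fold change over the 5 for KO against WT was -1.33 on HFCF, the value of Slc22a26, whose groups overlapped. On chow it was -1.77, the value of Slc22a28. Nothing is read from these medians, since the genes were listed with the differences known.

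The rest of the Slc22 family was counted by symbol, and the 5 genes above had been picked out of the same family. Of 20 other Slc22 symbols 10 were in the table and 9 passed the filter. For KO against WT on HFCF, 4 of 9 fell and 0 rose, with a median log2 fold change of -0.32. Of all tested genes 8.52% fell and 10.6% rose there, with a median of 0.02. On chow 3 of 9 fell and 1 rose (5.82% and 9.72% of tested genes), with a median of -0.03 beside 0.00. For HFCF against chow, 3 of 9 rose in WT and 0 fell (7.76% and 5.9% of tested genes), with a median of 0.28. In KO 0 of 9 were called by edgeR (2.65% of tested genes) and 1 by DESeq2. At an unadjusted p under 0.05 in edgeR there was 1 (17.9% of tested genes). The interaction called 0 of 9 in edgeR (0.794% of tested genes) and in DESeq2. It held 2 at an unadjusted p under 0.05 in edgeR (13.2% of tested genes). One of the 9, Slc22a29, reached the filter's level in 5 WT livers and in 0 of 6 KO livers, so that its lower level in KO was in part a condition of being tested. Without it, 3 of 8 fell in KO livers on HFCF, and 2 of 8 fell and 1 rose on chow.

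Slc22a3, which encodes the organic cation transporter OCT3, fell in KO livers on both diets. It stood at 1.74, 1.54 and 1.58 CPM in KO HFCF livers, against 7.85, 4.03 and 5.22 CPM in WT HFCF livers. On chow it stood at 1.83, 1.24 and 0.630 CPM in KO livers, against 6.44, 7.15 and 6.36 CPM in WT livers. The genotypes did not overlap, and the log2 fold change was -1.82 ± 0.29 on HFCF (edgeR adjusted p = 0.000734) and -2.40 ± 0.30 on chow (edgeR adjusted p = 0.000211). Slc22a29, the cluster gene next to Slc22a28 and Slc22a30, held 1, 0 and 1 counts in KO HFCF livers, against 49, 13 and 20 counts in WT HFCF livers. Its pooled level in KO was 2.53% of that in WT, with a 95% exact counting interval of 0.301% to 9.42%. On chow it held 2, 0 and 2 counts in KO livers and 11, 6 and 14 counts in WT livers, and its log2 fold change was -3.02 ± 0.78. No p-value is given for it, since it passed the filter through WT livers.

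Slc22a5, which encodes the carnitine transporter OCTN2, averaged 49.0 ± 11.1 CPM in KO HFCF livers and 68.6 ± 5.72 CPM in WT HFCF livers, and 60.8 ± 10.5 CPM in KO chow livers and 86.0 ± 8.98 CPM in WT chow livers (SD, n = 3 each). Its log2 fold change was -0.49 ± 0.15 on HFCF and -0.50 ± 0.15 on chow (edgeR adjusted p = 0.0401 each). Both calls were fragile. The HFCF call was lost without WT HFCF replicate 1 or 3 or KO HFCF replicate 2 or 3 (edgeR adjusted p = 0.0565 to 0.112), and the chow call without WT chow replicate 1 or 3 or KO chow replicate 2 or 3 (edgeR adjusted p = 0.0701 to 0.154). Slc22a18, an imprinted gene for an orphan carrier, fell by 0.32 ± 0.09 on the log2 scale on HFCF (edgeR adjusted p = 0.0218). That call was lost on leaving out WT HFCF replicate 1 or KO HFCF replicate 2 (edgeR adjusted p = 0.0767 or 0.0587).

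Slc22a18 and Slc22a23 rose on HFCF in WT livers. Slc22a18 averaged 85.5 ± 7.56 CPM in WT HFCF livers and 63.7 ± 1.57 CPM in WT chow livers (SD, n = 3 each), and it rose by 0.43 ± 0.09 on the log2 scale (edgeR adjusted p = 0.00677). Slc22a23, an orphan member, rose by 0.48 ± 0.09 (edgeR adjusted p = 0.00364). Slc22a23 also rose in KO against WT livers on chow, by 0.33 ± 0.09 (edgeR adjusted p = 0.0238), a call lost without WT chow replicate 1 or 2 or KO chow replicate 1 (edgeR adjusted p = 0.0619 to 0.108). Slc22a4, Slc22a15 and Slc22a17 were not called in any comparison. Slc22a21 did not pass the filter.

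**Figure D4:**
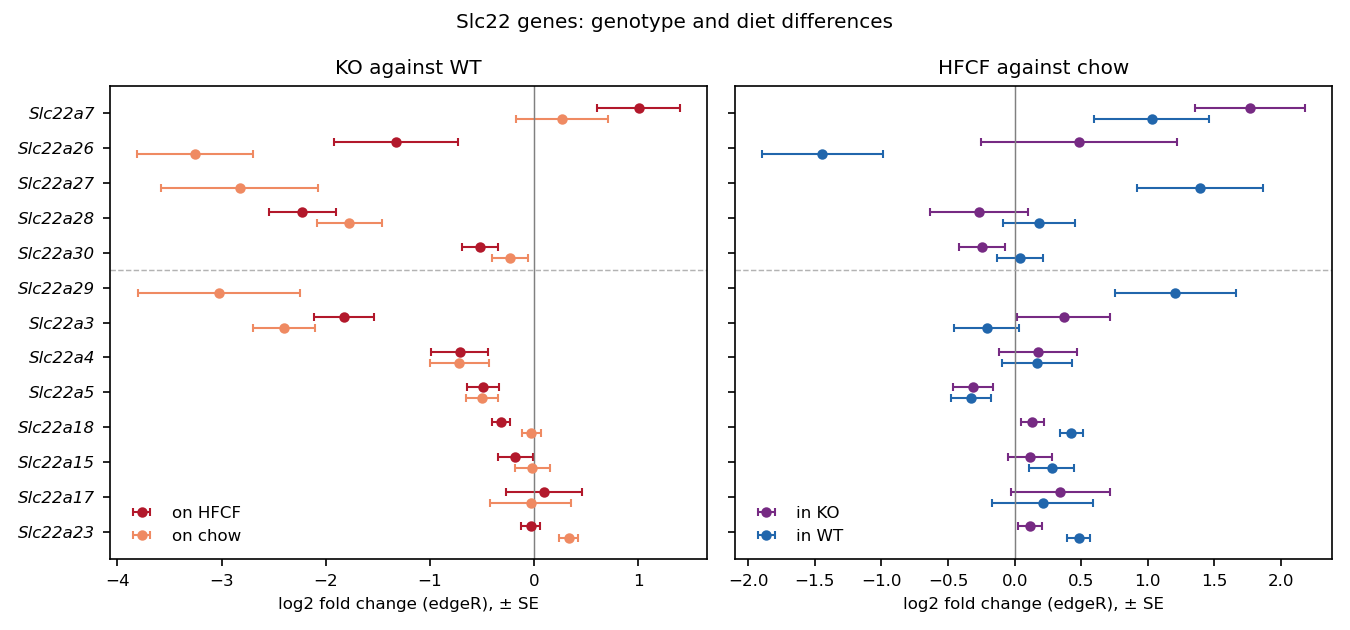
log2 fold changes (± SE, edgeR) of KO against WT (left) and of HFCF against chow (right) for the 5 genes, above the dashed line, and for 8 other Slc22 genes below it. Values where a group held 3 counts or fewer (Slc22a27 and Slc22a29, on HFCF and in KO) are not drawn. Among the 5, Slc22a26 and Slc22a27 lie farthest left on chow, and Slc22a7 is the gene of the 5 that lies right of 0 in every comparison drawn.

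Genes were also ranked by how close their pattern came to that of each of the 5. The measure was the root mean square difference of mean-centred log2 CPM over 12 libraries, among 11552 tested genes that averaged 1 CPM or more, where a smaller value is a closer match. Slc22a30 came closest to S1pr1 (0.144), Pdilt (0.153) and Cyp4f14 (0.154), beside a median of 0.354 over all candidates. Slc22a28 came closest to Trhde, which encodes a peptidase (0.354), the carboxylesterase gene Ces1e (0.399) and the cytochrome P450 gene Cyp2c29 (0.407), beside a median of 1.02. Slc22a27 came closest to the lipid droplet gene Plin4 (0.667), the acyltransferase gene Mogat1 (0.732) and the sulfotransferase gene Gal3st1 (0.772), beside a median of 1.84. Slc22a26 came closest to Slc22a3 (0.739), the organic anion carrier gene Slco1a4 (0.772) and the steroid hydroxylase gene Cyp17a1 (0.818), beside a median of 1.27. Slc22a7 came closest to Spry4 (0.577), Phlda1 (0.586) and the sterol transporter gene Abcg5 (0.627), beside a median of 1.01. Points share libraries and depth, and low counts widen the differences of Slc22a26 and Slc22a27. Slc22a29 averaged 0.627 CPM and so could not be a candidate. Among those of the 5 that lie in the cluster, Slc22a28 and Slc22a30 were the closest pair at 0.781. Slc22a28 and Slc22a26 followed at 1.01 and Slc22a28 and Slc22a27 at 1.16, and Slc22a27 and Slc22a30 were the farthest at 1.69. Slc22a29 was not compared with them.

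The summed macrophage and lymphocyte markers were higher in KO livers on both diets, and markers of other liver cells gave mixed results. Summed CPM of 7 macrophage markers was 750 to 798 in KO HFCF livers and 321 to 638 in WT HFCF livers, and 542 to 559 in KO chow livers and 345 to 384 in WT chow livers. In edgeR 6 of the 7 rose in KO livers on HFCF and 5 of 7 on chow. Of all tested genes 10.6% rose and 8.52% fell on HFCF, and 9.72% rose and 5.82% fell on chow. These shares also stand beside the counts of the other markers below. Summed CPM of 8 lymphocyte and plasma cell markers was 60.9 to 72.4 in KO HFCF livers and 2.90 to 3.75 in WT HFCF livers, and 95.2 to 127 in KO chow livers and 2.76 to 4.49 in WT chow livers. Most of that sum was Igj, the immunoglobulin joining chain gene, at 58.4 CPM in KO HFCF livers and 0.707 CPM in WT HFCF livers on average. Cd3e was at 0 in 3 libraries and Cd3d in 1. Of 7 stellate cell markers 0 were called for genotype on HFCF and 3 rose on chow, of 5 cholangiocyte markers 0 and 1 rose, and of 7 endothelial markers 1 rose and 2 fell on HFCF and 0 were called on chow. Summed CPM of 12 hepatocyte markers was 42173 to 44710 in KO HFCF livers and 33031 to 41008 in WT HFCF livers, and 38677 to 48367 in KO chow livers and 47253 to 50660 in WT chow livers. Of these 12 markers 4 rose and 2 fell in KO livers on HFCF, and 0 rose and 4 fell on chow. The median hepatocyte sum was 42226 in KO HFCF livers and 34850 in WT HFCF livers, and 40162 in KO chow livers and 48554 in WT chow livers, so it was higher in KO on HFCF and lower in KO on chow. Of 7 kidney tubule markers, listed because these carriers are also known from kidney, 2 were in the table, and Lrp2 rose in KO livers on both diets while Slc5a2 was not called. The part of these cells in the Slc22 values was not tested.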

How the data were processed

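RNA was sequenced from 12 liver libraries, 3 per group, made with a stranded kit after ribosomal RNA depletion, per the labels' protocols. The authors deposited one table with read counts per Ensembl gene and FPKM values, per the file headers. Each FPKM equaled the count divided by gene length and library total. Per the submitters' processing notes the build was mm10. Starts in the file count from 0 and were shifted by 1. The aligner, counting tool, strand setting and annotation release are not given in the sources used here. The labels number the livers 1 to 3 in each group without saying that each is a separate mouse, so p-values measure the spread between these samples.

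The 5 genes, the 14 gene lists (169 symbols, 141 in the table) and the tests were chosen with earlier results of these data known. Columns were matched to samples by title. Genes were kept by filterByExpr (minimum count 10, minimum total 15), which kept 14736 of the 15846 genes. TMM-scaled counts were fitted by group, with no covariate, in edgeR 4.0.16 under R 4.3.3 (glmQLFit, glmQLFTest), and p-values were adjusted by Benjamini-Hochberg over all tested genes in each of 5 comparisons. The test prints no SE, so each SE was derived as the absolute log2 fold change divided by the square root of the F statistic. The common biological coefficient of variation was 0.119. Named were Nr0b2, the 5 genes, other Slc22 genes that were called or had a mean of at least 1 CPM, the 3 genes nearest in pattern to each of the 5, and up to 4 genes with the lowest adjusted p of each other list. Some of these are not reported here. Groups with 1 to 3 counts carry 95% exact counting intervals, which cover counting error only. Same-numbered livers showed weak likeness: 4 of 18 correlations of their deviations exceeded 0.1 (-0.148 to 0.167). Livers of different numbers were not compared, so whether the numbers pair the livers was not settled. The pipeline was tested on simulated counts.

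Coding sequences and transcripts came from GENCODE M21, promoter windows from RefSeq on GRCm38.p6. They were compared and searched with Biopython 1.88. Figures used Python 3.11.15, pandas 2.3.3 and matplotlib 3.10.9. The alternatives were upper quartile or RLE scaling, leaving out the filter, a stricter one (mean of at least 1 CPM), the replicate block, DESeq2 1.42.0, limma voom (limma 3.58.1), a fit of the compared groups alone, leaving out each library, and a minimum of 10 CPM for the pattern ranking. With counts there was no pseudocount to vary.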

Additional observations from a re-analysis of the deposited data

How the results depend on the processing

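Of 4619 recomputed log2 fold changes for 48 named genes, 4314 kept their sign and their side of the threshold, 141 lost a call and 94 gained one. Another 70 changed sign, 0 of them with a call in either fit and 4 of them among the 5 genes. In addition 3 nearest-gene differences moved when candidates needed a mean of at least 10 CPM: Abcg5 (0.627) for Slc22a7, Slco1a4 (0.772) for Slc22a26 and Ces1e (0.399) for Slc22a28. RLE and upper quartile scaling moved the median of all genes by less than 0.02 on the log2 scale. For HFCF against chow in KO, 390 genes were called, against 656 with DESeq2 and 603 in the fit of the compared groups alone, and DESeq2 called 1 other Slc22 gene where edgeR called 0. DESeq2 called 344 genes in the interaction, against 117. With the replicate block, 0 of the 5 genes were called for HFCF against chow in KO, against 1 without it, and 1 was called in WT, against 0. The stricter filter and DESeq2 also called 1 of the 5 in WT, in each case Slc22a26. No other count moved beyond 1.5 times under the replicate block. The cause of these changes was not tested.

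Leaving out each library gave 2042 to 2834 called genes for KO against WT on HFCF, 1152 to 2788 on chow, 157 to 776 for the diet in KO, 1100 to 2264 in WT and 11 to 136 in the interaction. The lowest counts came without KO HFCF replicate 2, WT chow replicate 3, KO chow replicate 1, WT chow replicate 3 and KO HFCF replicate 2. Of the 5 genes it called 2 to 4, 2 to 3, 0 to 1, 0 to 2 and 0, and of the other Slc22 genes 2 to 5, 2 to 4, 0 to 1, 3 and 0, in the same order. Depth limits Slc22a27 and Slc22a29 most, since their KO groups held 1 to 9 counts.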

Other observations

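Other hepatic transporters, listed by symbol, changed in both directions. Of 21 tested, 2 rose and 7 fell in KO against WT livers on HFCF, and 1 rose and 4 fell on chow. Of all tested genes 10.6% rose and 8.52% fell on HFCF, and 9.72% rose and 5.82% fell on chow. Abcc3, which encodes the sinusoidal efflux pump MRP3, averaged 234.7 CPM in KO HFCF livers and 482.4 CPM in WT HFCF livers, and its log2 fold change was -1.04 ± 0.10 (edgeR adjusted p = 1.85e-05). Abcc4, which encodes the related pump MRP4, averaged 9.34 CPM in KO HFCF livers and 4.64 CPM in WT HFCF livers, and its log2 fold change was 1.01 ± 0.20 (edgeR adjusted p = 0.00373). On chow Abcc3 changed by -0.47 ± 0.10 (edgeR adjusted p = 0.00769) and Abcc4 by 1.62 ± 0.20 (edgeR adjusted p = 0.000189). Slco1b2, an organic anion uptake carrier gene, fell by 0.54 ± 0.10 on HFCF (edgeR adjusted p = 0.00178) and by 0.44 ± 0.10 on chow (edgeR adjusted p = 0.00912). For HFCF against chow, 1 of 21 rose and 2 fell in KO (1.47% and 1.18% of tested genes). In WT 6 rose and 5 fell (7.76% and 5.9% of tested genes). In the interaction 0 were called by edgeR (0.794% of tested genes). DESeq2 called Abcc3, Abcc6 and Slc17a4 there, and edgeR called Slc17a4 without WT HFCF replicate 3.

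Of 28 regulators of hepatic transporter genes, Nr0b2 included, 1 rose and 6 fell in KO livers on HFCF, and 1 rose and 4 fell on chow. Nr0b2, the targeted gene, was among those that fell on both diets. Of all tested genes 10.6% rose and 8.52% fell on HFCF, and 9.72% rose and 5.82% fell on chow. For HFCF against chow 0 rose and 2 fell in KO (1.47% and 1.18% of tested genes), and 3 rose and 3 fell in WT (7.76% and 5.9%). Nr1i3, which encodes the xenobiotic receptor CAR, fell by 0.77 ± 0.16 in KO livers on HFCF (edgeR adjusted p = 0.00362). Of 15 genes known as male-biased in mouse liver, 7 rose and 1 fell in KO livers on HFCF and 5 rose and 0 fell on chow. Of 10 tested genes known as female-biased, 1 rose and 2 fell on HFCF and 3 rose and 1 fell on chow. Beside both lists stand the same shares of tested genes, 10.6% higher and 8.52% lower on HFCF. On chow these shares were 9.72% higher and 5.82% lower. Y-linked genes were present in all 12 libraries.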
